A study of Gallus gallus with 10 samples.

Results

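AVD (ENSGALG00000023622), the chicken avidin gene, was compared in the preoptic anterior hypothalamus (PO/AH) between uninjected young chicks and other chicks given a miR-200a mimic. It is 1 of 11324 genes with a row of counts. It was selected on the difference between the naïve and the mimic libraries, so its levels in that comparison are a description and carry no test. Cobb broiler chicks 3 days of age formed both groups. The naïve group (5 libraries, 0 h) received no injection, and the mimic group (5 libraries) was taken 6 h after injection of hsa-miR-200a-3p mimic, a synthetic double of the mature microRNA. RNA of whole PO/AH tissue was read by bulk MARS-seq, which tags each molecule near its 3′ end with a unique molecular identifier (UMI), and the tags allow reads of 1 molecule to be counted once. The methods of the study place the injection in the PO/AH, while its results describe it as into the third ventricle. No library among the samples came from chicks given a control mimic. An effect of the injection and an effect of miR-200a therefore cannot be told apart. The groups also differ in time (0 h and 6 h), and an effect of time cannot be told apart from either. No source used here says whether each library came from a single chick, and p-values therefore measure the spread between these libraries only.

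Avidin is the secreted biotin-binding glycoprotein of egg white. It forms a tetramer that holds the vitamin biotin with exceptional affinity and keeps it from microbes. In the hen it is made by the oviduct under the control of progesterone, and outside the oviduct chicken tissues and macrophages are known to make it during inflammation, infection and injury.

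The summed UMI counts ranged from 2104121 to 5503185 per naïve library and from 3598695 to 4511597 per mimic library. The libraries carry deposited numbers, which are 2, 3, 4, 6 and 7 for the naïve group and 2, 4, 6, 9 and 10 for the mimic group. Naïve library 7 had the smallest total and the fewest genes detected (10803, against 11079 to 11235 elsewhere), and values without it are given for AVD and for genes in which it stood apart. Levels are given as CPM, counts per 1000000 UMIs of a library after TMM scaling of the totals. A symbol could be given to 137 of the 11324 identifiers, through supplementary tables of the study that list genes near methylated regions of sperm and genes picked for a difference between these libraries. Of 8 listed neuronal markers only RBFOX3 could be identified by name. It was present in every library, at 91.2 to 138 CPM in naïve and 53.2 to 111 CPM in mimic libraries. Its log2 fold change of −0.45 did not pass the test (unadjusted p = 0.0285, adjusted p = 0.612, edgeR). None of the 8 hypothalamic markers looked for could be identified by name.

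AVD was close to the lower limit of detection in the naïve PO/AH and abundant 6 h after the mimic. Its counts in the naïve libraries were 3 in library 2, 12 in library 3, 4 in library 4, 5 in library 6 and 3 in library 7. In the mimic libraries they were 1441 in library 2, 216 in library 4, 1639 in library 6, 848 in library 9 and 474 in library 10. The groups did not overlap, and a few molecules were nevertheless found in each naïve library. Over all naïve libraries AVD made up 27 of 21554408 UMIs, and over all mimic libraries 4618 of 20469666.

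On the CPM scale, the naïve level was 0.542 in library 2, 2.10 in library 3, 1.07 in library 4, 0.963 in library 6 and 1.52 in library 7. The mimic level was 404 in library 2, 56.4 in library 4, 371 in library 6, 196 in library 9 and 123 in library 10. The lowest mimic library thus held 26.8 times the level of the highest naïve library. Exact Poisson intervals (95%, counting error only) ran from 0.112 to 1.58 CPM for naïve library 2 and from 1.09 to 3.68 CPM for naïve library 3, so these lowest and highest naïve values overlapped within counting error. The intervals of mimic libraries 4 (49.1 to 64.4 CPM) and 10 (112 to 134 CPM) did not overlap.

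**Figure D1:**
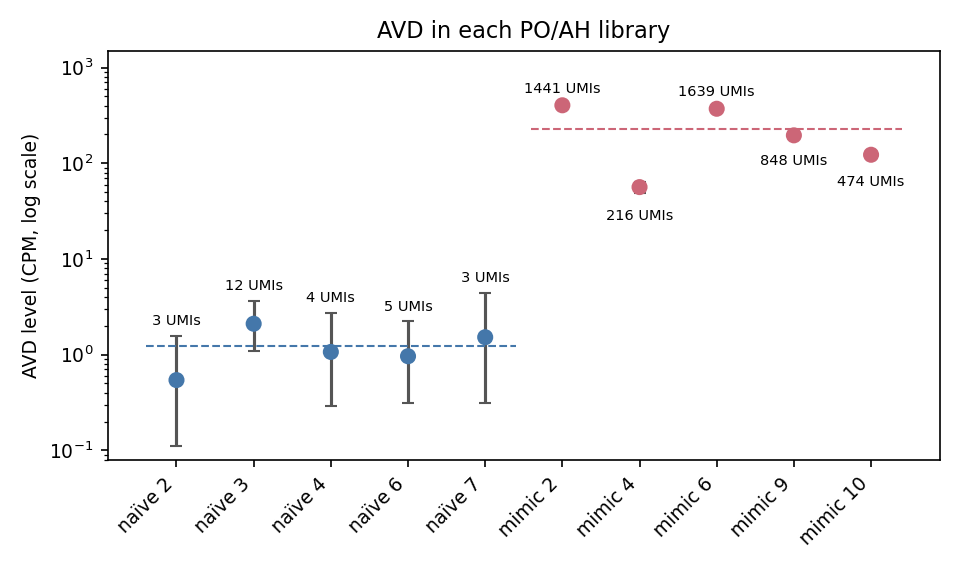
AVD level in CPM (log scale) in each of the 5 naïve (blue) and 5 mimic (red) libraries, with exact 95% Poisson intervals of the count as bars, the UMI count beside each point and the group mean as a dashed line. The naïve libraries sit between 0.542 and 2.10 CPM and the mimic libraries between 56.4 and 404 CPM.

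The mean AVD level in the naïve group was 1.24 ± 0.596 CPM and that in the mimic group 230.0 ± 152 CPM (SD, n = 5 each). The means differed 186-fold and the medians, 1.07 and 195.9 CPM, differed 184-fold. Of the 25 ratios of a mimic to a naïve library, the smallest was 26.8, the median 184 and the largest 745. The log2 fold change fitted by edgeR was 7.53 (standard error 0.73), and it was 7.57 (standard error 0.85) without naïve library 7. AVD entered the fit through the mimic libraries: 1 of 5 naïve libraries held 10 or more AVD counts, against 5 of 5 mimic libraries, and on the naïve libraries alone AVD would not have passed the filter on low counts.

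AVD had the largest log2 fold change of the 8585 genes tested. The next was SOCS3, the feedback inhibitor of cytokine receptor signaling through JAK and STAT proteins, at 3.83 (standard error 0.71, adjusted p = 0.0688 from edgeR), which did not pass the test. It was followed by ENSGALG00000014585, which has no symbol in the tables, at 3.67, and by the transglutaminase gene TGM4 at 3.58 (adjusted p = 0.00346 and 0.0201 from edgeR). The distance between AVD and SOCS3 on this scale was therefore about as long as that between SOCS3 and a gene with no change. To be called, a gene needed an adjusted p no greater than 0.05, at least a 1.5-fold difference and 30 counts in its best library, and 12 genes were called higher (0.14% of those tested) and 2 lower (0.0233%). The number called higher was 6 without naïve library 2, 7 without naïve library 4 and 7 without naïve library 6. AVD is among the 12, but it was chosen on this contrast, so its call is no result. With each library left out in turn it still had the largest log2 fold change of the genes tested. That is a description, which the choice of AVD and its wide gap between the groups favored.

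The gap between the groups was also wide beside that of other genes. Every mimic library lay above every naïve library in 94 genes (1.09% of those tested) and below in 44 (0.513%), and AVD, chosen on this contrast, is among the 94. The lowest mimic library exceeded the highest naïve library 26.8-fold for AVD. The next largest such ratio was 3.56, for C1S, a protease of the first complement component. In absolute terms the change of AVD, 229 CPM, was the 41st largest rise among the tested genes, since genes of high level gain more molecules from small fold changes. Over the 12 genes called higher, the summed mean gain was 631 CPM, of which AVD made up 36.3%.

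**Figure D2:**
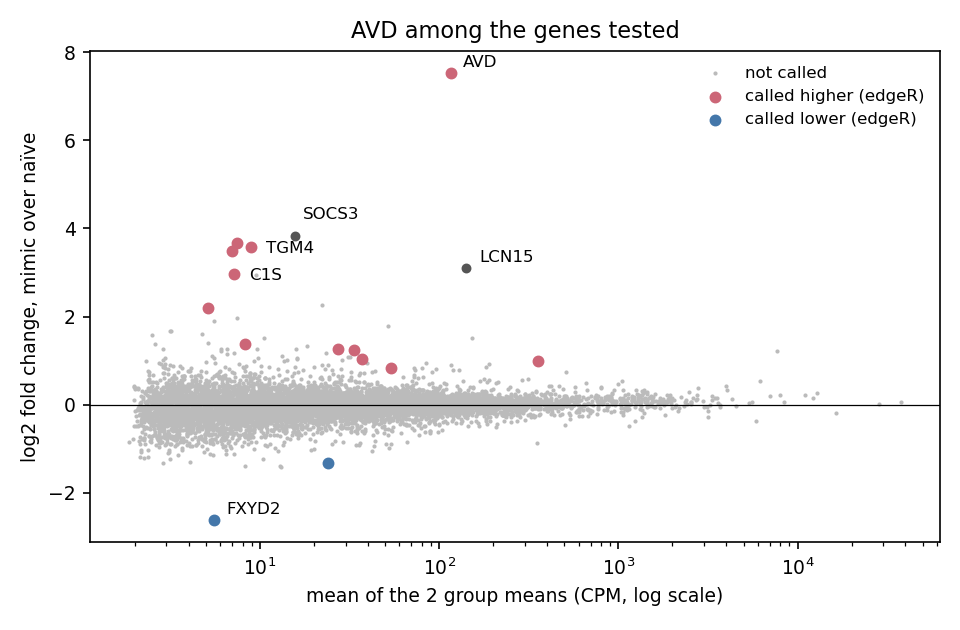
Log2 fold change (mimic over naïve) of the 8585 genes tested against the mean of both group means in CPM (log scale). Red points are the 12 genes called higher and blue points the 2 called lower by edgeR, dark gray points are SOCS3 and LCN15, which were not called, and AVD stands alone at 7.53.

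Among the genes with a row of counts, the level of AVD moved from the lower part to the upper part. UMI counts at the 3′ end count molecules, so levels of genes can be ranked without scaling to transcript length. In naïve chicks the mean level of AVD was higher than that of 14.3% of the 11324 genes, at rank 9701. After the mimic it was higher than that of 93.6%, at rank 720. The rank was 393 in mimic library 2, 418 in library 6, 834 in library 9, 1367 in library 10 and 2630 in library 4. In naïve chicks it lay between 8780 in library 3 and 10663 in library 2, so that no naïve rank came near the mimic ranks.

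The mimic libraries differed widely in AVD among themselves. The highest level was 7.16 times the lowest, and the coefficient of variation was 66.3%, where counting error at the mean count gives 3.29%. In the naïve group the coefficient of variation was 48.1%, beside 43.0% from counting error, so the naïve spread was close to what the small counts alone give. The SD of log2 CPM over the mimic libraries was 1.18. Of 650 genes whose mean level in the mimic libraries lay within 1.5-fold of that of AVD, 2 had a larger SD, and the median was 0.18. The 2 genes, named after their values were seen, were ENSGALG00000006771 (1.58) and ENSGALG00000008883 (1.46), neither with a symbol in the tables, and the next after AVD was LCN15 (1.03), a member of the lipocalin family. The biological coefficient of variation that edgeR fitted for AVD was 56.5%, where genes of its level had 18.2% on the fitted trend.

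**Figure D3:**
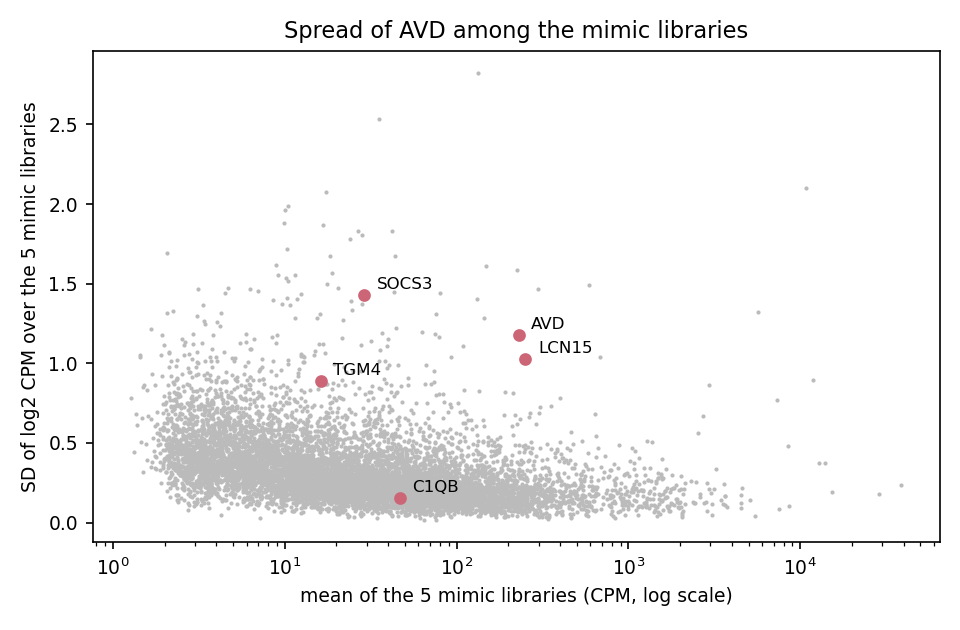
SD of log2 CPM over the 5 mimic libraries against the mean level of those libraries in CPM (log scale), 1 point for each of the 8585 genes tested, with 5 genes in red. AVD (1.18) and LCN15 (1.03) lie above nearly all genes of their level, while C1QB lies within the bulk.

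The genes whose pattern was most like that of AVD were sought over the 10 libraries. Likeness was measured as Pearson's r of log2 CPM with AVD over all 10 libraries. It is a description without a test, it rests mostly on the difference between the groups, and the libraries share their scaling. The 10 nearest of the 8584 other genes were CRLF3 (r = 0.96), ENSGALG00000046192 (0.95), SPI1 (0.94), ENSGALG00000014585 (0.94), C1S (0.94), C1QB (0.94), TGM2 (0.94), TGM4 (0.93), ENSGALG00000026970 (0.93) and BAG3 (0.93), and the eleventh gene had 0.92. In all 10 the mimic libraries lay above the naïve libraries, as in 1.09% of all genes tested. Choice by likeness to AVD favors such genes, so this is no result about the 10. With 1 library left out at a time, 6 to 9 of the 10 were kept, 6 without naïve library 7. Ranked by Spearman's rho, 2 of the 10 were kept.

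The differences of these genes were far smaller than that of AVD. CRLF3, a cytokine receptor-like factor, averaged 16.4 ± 1.81 CPM in naïve and 23.5 ± 1.69 CPM in mimic libraries (SD, n = 5 each). Its log2 fold change was 0.51 and did not pass the test (adjusted p = 0.325, edgeR). SPI1, the transcription factor that directs macrophage and microglia development, had 0.85 (adjusted p = 0.109 with edgeR and 0.0105 with DESeq2 at the settings of the study). The other 8 genes were called higher, beside 0.14% of all genes tested, and their choice by likeness to AVD favored such genes. On the log2 scale C1S rose by 2.98 ± 0.39 (standard error, adjusted p = 0.00441, edgeR) and C1QB, a chain of the complement starter C1q, by 1.24 ± 0.15 (adjusted p = 0.00346, edgeR). TGM2, the widely expressed tissue transglutaminase that cross-links proteins, rose by 1.27 ± 0.18 (adjusted p = 0.00707, edgeR). BAG3, a co-chaperone of HSP70 proteins, rose by 0.83 ± 0.13 (adjusted p = 0.0135, edgeR), and ENSGALG00000026970 by 0.99 (adjusted p = 0.0223 from edgeR).

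The call of TGM4 was lost when any of naïve libraries 2, 3, 4 and 6 or mimic library 2 was left out (edgeR, adjusted p from 0.0605 to 0.0908). That of ENSGALG00000026970 was lost without naïve library 2, 3, 4 or 6 (adjusted p from 0.0829 to 0.0908, edgeR). That of BAG3 was lost without naïve library 2 or 4 and with library totals as the only scaling (adjusted p = 0.0581, 0.0622 and 0.0540 from edgeR). The calls of C1S, C1QB, TGM2, ENSGALG00000014585 and ENSGALG00000046192 passed with each library left out. Without naïve library 7, the log2 fold change was 4.08 for TGM4, 4.04 for ENSGALG00000014585 and 1.10 for ENSGALG00000026970 (adjusted p = 0.0128, 0.00183 and 0.0137, edgeR). The symbols in this likeness ranking come from tables of the study, which include genes picked on the same libraries. The rise of the genes named by symbol is therefore not independent evidence.

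**Figure D4:**
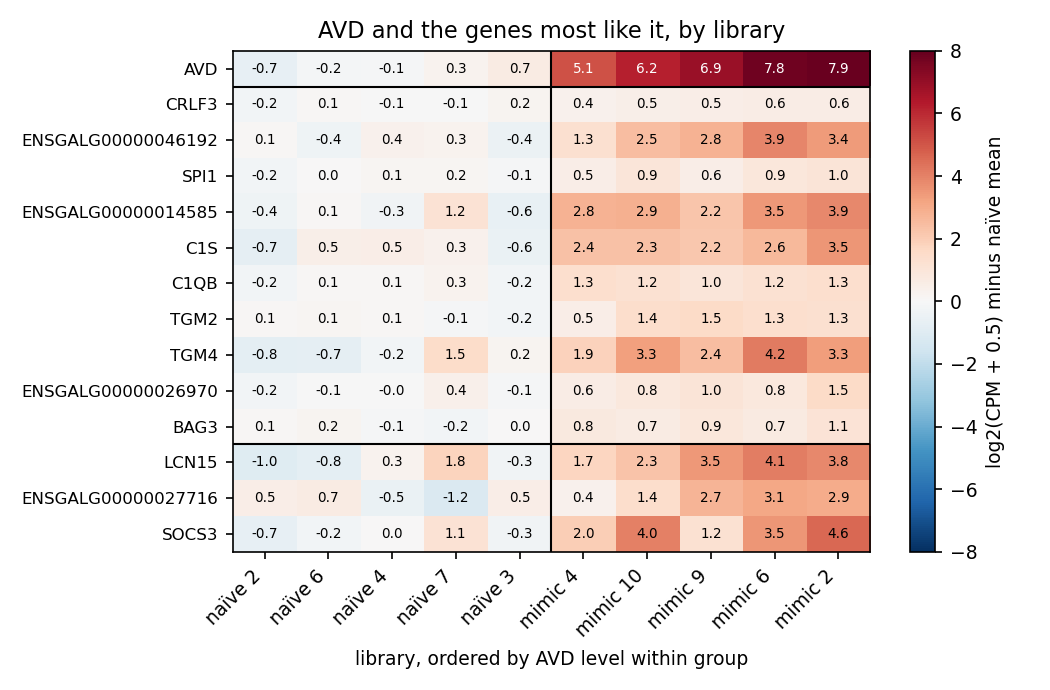
Log2(CPM + 0.5) of each gene in each library, relative to its mean over the naïve libraries, with libraries ordered within each group by their AVD level. The first row is AVD, the next 10 rows are the genes most like it over the 10 libraries in order of likeness, and the last 3 rows are LCN15, ENSGALG00000027716 and SOCS3. AVD, LCN15 and ENSGALG00000027716 are highest in mimic libraries 2 and 6 and lowest in mimic library 4, while SOCS3 is lowest in mimic library 9. In the rows of ENSGALG00000046192, TGM4 and CRLF3 the same libraries are highest and lowest as for AVD.

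Within the mimic group, a few genes followed the large differences in AVD from library to library. The measure here was the SD of the log2 ratio of AVD to the gene over the 5 mimic libraries, taken up after the values had been seen. Its median over 8584 genes was 1.21. The smallest value was that of ENSGALG00000046192 (0.29), followed by ENSGALG00000027716 (0.32), which has no symbol in the tables and is named because its values were seen, and by LCN15 (0.32). With 5 libraries and 8584 genes, small values are found in any such search, and the next genes by this measure, ENSGALG00000043620 and ENSGALG00000010996, had edgeR log2 fold changes of −0.22 and 0.06 (adjusted p = 0.947 and 0.981).

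ENSGALG00000046192 was at 17.1 CPM in mimic library 2, 3.39 in library 4, 23.6 in library 6, 10.9 in library 9 and 8.55 in library 10. Its highest and lowest mimic levels differed 6.95-fold, but the ratio of AVD to it stayed between 14.4 and 23.6. In naïve chicks both genes were near the lower limit of detection, at 1.17 ± 0.417 CPM for ENSGALG00000046192 and 1.24 ± 0.596 CPM for AVD (SD, n = 5). ENSGALG00000046192 differed between the groups by 3.49 ± 0.50 on the log2 scale (standard error, edgeR, adjusted p = 0.00707), and the ratio seen in the mimic libraries was thus not present in the naïve ones.

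LCN15 was at 352 CPM in mimic library 2, 82.5 in library 4, 428 in library 6, 276 in library 9 and 120 in library 10. The ratio of AVD to LCN15 ranged from 0.684 to 1.15 over these libraries, so that after the mimic both transcripts were of like abundance and of like spread. In the naïve libraries they differed: LCN15 was at 12.3 CPM in library 2, 19.8 in library 3, 29.6 in library 4, 14.1 in library 6 and 83.7 in library 7. Naïve library 7 lay above mimic library 4 for LCN15, the groups overlapped, and its log2 fold change of 3.09 did not pass the test (standard error 0.67, adjusted p = 0.229 from edgeR), nor did it without naïve library 7 (3.75, adjusted p = 0.0555 from edgeR). AVD was at 1.52 CPM (3 counts) in naïve library 7, the library in which LCN15 was highest among the naïve ones. Over the naïve libraries AVD ranged from 0.542 to 2.10 CPM.

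ENSGALG00000027716 ranged from 8.35 CPM in mimic library 4 to 59.6 CPM in mimic library 6, and from 2.54 to 10.6 CPM in the naïve libraries. Its groups overlapped, and its log2 fold change of 2.26 did not pass the test (adjusted p = 0.227 from edgeR). LCN15, ENSGALG00000046192 and ENSGALG00000027716 were highest in mimic library 6 and AVD in mimic library 2. None of them thus had the mimic libraries in exactly the order of AVD. That order was found in 107 of the 8584 other genes tested (1.25%), where 120 orders are possible. The level of SOCS3 was 60.5 CPM in mimic library 2, 9.39 in library 4, 28.8 in library 6, 5.31 in library 9 and 40.7 in library 10, and the ratio of AVD to SOCS3 ranged from 3.02 to 36.9. C1QB varied little, with its highest mimic level 1.31 times its lowest, so the ratio of AVD to C1QB changed 7.11-fold between mimic libraries, about as much as AVD itself.

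Of 26 genes listed for inflammation and the acute phase, the setting in which avidin is known outside the oviduct, 6 could be identified by name and 5 were tested. None was called in either direction by edgeR, beside 0.14% of all genes called higher, while the unadjusted p was under 0.05 in 5 of 5, and in 640 of the 8585 genes. DESeq2 at the settings of the study called 36 of the 8585 genes higher. SOCS3, LCN15 and STAT3 were among them (adjusted p = 8.67e-05, 0.00161 and 0.00128, DESeq2). The median log2 fold change of the 5 was 1.66, against −0.00 for all genes tested. STAT3, the transcription factor downstream of interleukin-6 type cytokines, averaged 54.4 ± 11.6 CPM in naïve and 92.6 ± 16.6 CPM in mimic libraries (SD, n = 5 each, adjusted p = 0.0688, edgeR). In edgeR, the adjusted p of SOCS3 was 0.0292 when mimic library 4 was left out and 0.0133 when mimic library 9 was, and that of STAT3 was 0.0137 when naïve library 7 was. The log2 fold change of SOCS3 without naïve library 7 was 4.15 (edgeR, adjusted p = 0.101). All of these genes owe their names to tables of genes that the study picked from these libraries, so the list is no independent evidence of a direction. None of the listed genes for biotin handling and biotin-dependent carboxylases (10), for other egg white proteins (22) or for steroid receptors (6), among them the progesterone receptor, could be identified by name.

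Of 12 listed markers of microglia and macrophages, 6 could be identified and were tested, C1QA, C1QB, C1QC, SPI1, P2RY13 and TREM2, and none was at 0. C1QB and C1QC were called higher and none lower, beside 0.14% and 0.0233% of all genes tested. These 6 genes owe their names to tables of the study, which include genes picked for a difference between these libraries. Their share of calls is therefore no independent evidence of a direction. C1QA and P2RY13, a purine receptor of microglia, had log2 fold changes of 1.08 and 1.05 and did not pass (adjusted p = 0.0633 for both with edgeR, 0.000896 for both with DESeq2 at the settings of the study). P2RY13 passed without naïve library 7 or mimic library 9 (adjusted p = 0.0389 and 0.0393, edgeR) and C1QA without mimic library 4 (adjusted p = 0.0352, edgeR). The call of C1QC (log2 fold change 1.04, adjusted p = 0.0460, edgeR) was lost without 8 of the 10 libraries, all but naïve library 7 and mimic library 4, and with library totals as the only scaling, with adjusted p from 0.0558 to 0.193. For TREM2, a receptor through which microglia sense lipids, the log2 fold change was −0.85. Its adjusted p was 0.320 with edgeR and 0.0803 with DESeq2 at the settings of the study. Every mimic library lay below every naïve library for TREM2, as in 0.513% of all genes tested. The summed level of the 6 genes was 80.5 to 117 CPM in naïve and 158 to 222 CPM in mimic libraries, and the medians differed 1.62-fold, beside the 184-fold difference in AVD. The ratio of AVD to this sum was between 0.00665 and 0.0261 in naïve libraries and between 0.354 and 1.97 in mimic libraries. More such cells and more RNA per cell cannot be told apart in whole tissue, and the part of these cells in the AVD difference was not tested.

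Markers of tissue bordering the PO/AH also differed between libraries. Of 8 listed genes of the choroid plexus and meninges, FOLR1, a folate receptor, and SLC6A13, a GABA transporter, could be identified, and both fell below the filter on low counts. Their summed level was 0.534 to 27.9 CPM in naïve and 0 to 0.28 CPM in mimic libraries. SLC6A13 had 75 counts in naïve library 3 and 68 in naïve library 6, where AVD was at 2.10 and 0.963 CPM. FOLR1 had 53 counts in naïve library 7, where AVD was at 1.52 CPM. AVD was at 0.542 to 2.10 CPM over the 5 naïve libraries. In naïve libraries 2 and 4 the summed marker level was low, at 0.904 and 0.534 CPM, and AVD was at 0.542 and 1.07 CPM. The highest levels of these markers were all in naïve libraries, so a high marker level and group cannot be separated here. The part of bordering tissue in the AVD difference was not tested. The listed markers of heterophils, erythrocytes, T and B cells, endothelium, astrocytes and oligodendrocytes could not be identified by name, so their part in the AVD level was not tested.

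AVD belongs to a family of near-identical genes on the Z chromosome. In the RefSeq annotation of the broiler assembly GRCg7b, whose build differs from the galGal5 build of the counts, AVD lies between LOC124417561 and CREB3L4. Beyond LOC124417561 follow, in order, AVR2, an avidin-related gene also called avr6, then LOC121108603, LOC427416, LOC121108602, AVDL and GBA2. LOC427416 carries the synonyms avr3 and avr7. None of these symbols is paired with an identifier in the tables used here, so the levels of the avidin-related genes and of the neighbors CREB3L4 and TLN1 were not analysed here. Reads shared by AVD and a related gene may have been counted for AVD, for the relative or for neither, and the AVD level is uncertain to that extent.

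The size of the AVD difference depended little on the processing. Over 20 alternatives the log2 fold change ran from 7.09, with a prior count of 2 in the fit, to 7.91, without naïve library 3, the naïve library with the most AVD counts. It was 7.55 with DESeq2, 7.19 with limma-voom and 7.46 with library totals as the only scaling. The standard error was smallest without mimic library 4, at 0.47, where the log2 fold change was 7.78. AVD ranked first by log2 fold change in 19 of the 20 alternatives. Without a filter on low counts ENSGALG00000041889 ranked above it, a gene with 1413 counts in 1 library and 0 in all others, named because its values were seen, and it was not called.

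**Figure D5:**
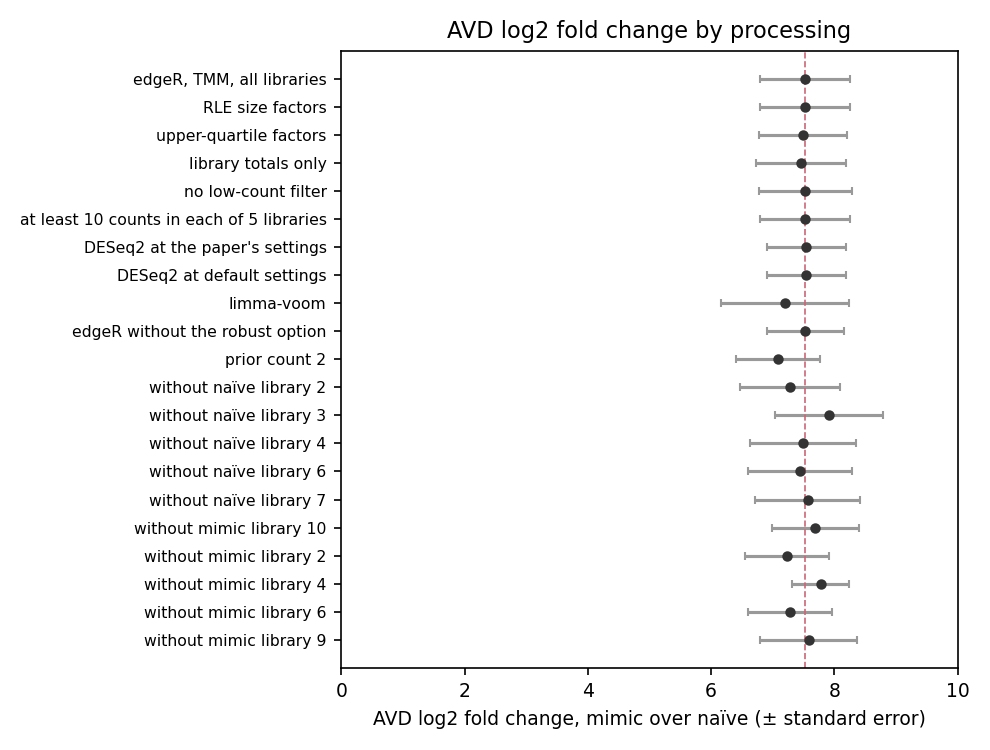
AVD log2 fold change (mimic over naïve) with its standard error under edgeR with TMM scaling and all libraries, at the top and as a dashed line, and under each of 20 alternatives. All values lie between 7.09 and 7.91.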

How the data were processed

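From bulk MARS-seq reads, cleaned by cutadapt and aligned by STAR (galGal5, 3′ gene ends only), the authors kept 1 read per gene and UMI, counted with HTSeq and corrected for saturation. No source used here gives their versions. The deposited UMI counts were used, and the 10 deposited normalized columns were not. Groups come from the condition in each column's name.

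The counts went into edgeR 4.0.16 (R 4.3.3). Of 11324 genes, 8585 passed filterByExpr (minimum count 10). They were scaled by TMM and compared by the two-sided quasi-likelihood test (robust) with p-values adjusted by Benjamini-Hochberg over all 8585. The standard error is the log2 fold change over the square root of F. For likeness, 2 was the prior count of log2 CPM. DESeq2 1.42.0, limma-voom (limma 3.58.1), other scaling, filters and prior counts and leaving out each library were alternatives.

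Genes named are AVD, the 10 most like it and the 3 called genes next by log2 fold change. From the lists, called members are named or else the 3 with the smallest p. Of the microglia and macrophage list and the choroid plexus and meninges list, every identified member is named. Other exceptions are marked. AVD, these rules and the lists were chosen with earlier results of these data known. Match of the miR-200a seed to AVD was not analysed here.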

Additional observations from a re-analysis of the deposited data

Results flagged for a closer look

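AVD itself had no library far from the others in either group. Among AVD and the genes named with it, 36 groups of 5 libraries were examined and 6 held a library set apart by a gap of more than 0.71 of the group's range, where chance flags about 1 in 20. The 36 groups share the same libraries and are not independent. In 5 of the 6 groups the library set apart was naïve library 7, the smallest library, where levels of a few CPM rest on few counts (10 for SOCS3). Its level of LCN15 was 83.7 CPM, where the next naïve library had 29.6 CPM. For TGM4 it was 4.56 CPM and the next 1.58 CPM, for SOCS3 5.07 and 2.13 CPM, for ENSGALG00000014585 3.04 and 1.16 CPM, and for ENSGALG00000026970 309 and 229 CPM. The AVD level of naïve library 7 was 1.52 CPM, within the range of the other naïve libraries. The sixth was C1S in mimic library 2, at 23.3 CPM with the next at 11.8 CPM, and the same library was the highest of the mimic group for AVD.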

How the results depend on the processing

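AVD had log2 fold changes from 7.09 to 7.91 over the 20 alternatives, and from 7.23 to 7.91 with 1 library left out. Its direction could not have changed, since its lowest mimic library lay far above its highest naïve library. DESeq2, at the settings of the study and at its defaults, called 36 genes higher and 5 lower, where edgeR called 12 and 2, and the cause was not tested. With 1 library left out edgeR called 6 to 18 genes higher and 2 lower. RLE and upper-quartile factors, no filter on low counts, limma-voom and edgeR without the robust option gave 11 to 14 higher and 2 lower, and library totals as the only scaling gave 10 higher. Of the 10 genes most like AVD, Spearman's rho kept 2, leaving out 1 library 6 to 9, library totals 8 and a prior count of 0.5 all 10. The SD of the log2 ratio over the mimic libraries, chosen after seeing the data, kept 1. No paired analysis was possible because the replicate numbers of the labels are not those of the columns. The naïve level of AVD rests on 3 to 12 counts per library, which limits the precision of every fold given.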
